A study of Mus musculus with 6 samples.

Results

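R403Q hearts treated with empagliflozin (R403Q-EMPA, 2 libraries) were compared with wild-type hearts on control diet (WT-CD, 2 libraries) by single-nucleus RNA sequencing, gene by gene and by cell class. Nuclei were the barcodes with at least 500 unique molecular identifiers (UMI, counted molecules of RNA), at least 300 genes and at most 5% of UMI from mitochondrially encoded genes. These numbered 33194 in the 4 libraries compared and 48438 in all 6 libraries. The other 2 libraries came from R403Q hearts on control diet (R403Q-CD), which were used to estimate the spread and are given beside the results as values, since both comparisons would share the WT-CD libraries. All hearts were left ventricles of male mice aged 12 weeks. WT-CD mice were littermates fed the control diet D09071703, and R403Q-EMPA mice were Myh6+/R404Q (R403Q) mice fed that diet with 0.15 mg/g of empagliflozin, about 15 mg/kg. Mice were 9 to 10 weeks old when the diets were begun, and hearts for RNA sequencing were taken after 2 weeks of treatment per the methods, which fits the age of 12 weeks, although the protocol in the labels names only a diet of 16 weeks. No group of wild-type mice on empagliflozin is analysed here, so mutation and treatment cannot be told apart in this comparison. The labels name no batch and no time of day at which hearts were taken, and either cannot be told apart from the groups. They do not say whether a library held tissue of 1 mouse, so p-values measure the spread between these libraries.

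R403Q is a missense mutation of the cardiac myosin heavy chain that serves as a mouse model of hypertrophic cardiomyopathy, a disease of thick, stiff ventricles with disordered myocytes and fibrosis. Empagliflozin inhibits the sodium-glucose cotransporter SGLT2 (Slc5a2), which returns glucose from the urine to the blood in the kidney. Ventricular myocytes under load make more natriuretic peptides, fibroblasts that are activated make matrix proteins, and nearly all cells make heat-shock chaperones under protein stress and run a daily clock of transcription factors.

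The libraries held 25524832 to 39874704 UMI over the nuclei kept, with medians of 2722.5 to 3796 UMI per nucleus in the 4 libraries compared. Of barcodes past the UMI and gene limits, 22.0% and 18.9% in WT-CD and 34.4% and 39.0% in R403Q-EMPA were over the mitochondrial limit. Any pair of libraries shared at most 56 deposited barcodes and 36 of those kept. The targeted gene Myh6 (ENSMUSG00000040752) lay at 2349 and 2636 CPM (UMI of a gene in each 1000000 of the library, here before TMM scaling) in WT-CD and 3592 and 4060 in R403Q-EMPA, and counts per gene do not show the substitution. The drug target Slc5a2 gave 4 to 7 UMI in each of the 6 libraries, so a difference was not detectable at this depth. R403Q-EMPA replicate 1 stood apart from replicate 2 in its share of endothelial-like nuclei and in matrix genes of fibroblast-like nuclei. Most values that rest on it are given with and without it. The WT-CD libraries differed too, with 17.6% and 30.1% endothelial-like nuclei. Chi-square per degree of freedom between replicates was 58.6 in WT-CD and 42.2 in R403Q-EMPA. A group left with 1 library was assumed to vary like the others.

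Among the nuclei kept, treated hearts had a larger share of cardiomyocyte-like and smaller shares of fibroblast-like and pericyte-like nuclei than wild-type hearts. Classes were rebuilt from marker genes, as the labels hold no cell types. Cardiomyocyte-like nuclei, which carried all 8 of their markers including Ttn, Ryr2 and Tnnt2, made up 11.8% and 9.36% of WT-CD nuclei, 12.8% and 14.1% of R403Q-CD nuclei and 19.5% and 25.0% of R403Q-EMPA nuclei. Both treated libraries lay above both wild-type libraries, by 11.7 percentage points (pooled SD 3.00). Fibroblast-like nuclei made up 38.7% and 33.9% of WT-CD, 31.5% and 28.5% of R403Q-CD and 20.9% and 29.1% of R403Q-EMPA nuclei. The difference was -11.3 points (pooled SD 4.75), and -7.21 without R403Q-EMPA replicate 1. With all libraries, the cardiomyocyte-like and fibroblast-like differences each gave p = 0.333 in a two-sided exact permutation test, which 2 against 2 libraries cannot go below. Pericyte-like nuclei, the support cells of capillaries, made up 13.5% and 11.8% of WT-CD, 10.4% and 10.4% of R403Q-CD and 4.90% and 8.83% of R403Q-EMPA nuclei. R403Q-EMPA replicate 1 was thus the lower of the treated libraries. Endocardial-like nuclei, from the inner lining of the chamber, were 6.38% and 6.71% of WT-CD and 8.30% and 9.25% of R403Q-EMPA, but with a mitochondrial limit of 1%, which left 1 to 5 such nuclei in each of these libraries, the groups overlapped. Endothelial-like nuclei overlapped between the groups, with 17.6% and 30.1% in WT-CD and 36.2% and 19.9% in R403Q-EMPA (exact permutation p = 0.667). Myeloid-like nuclei overlapped as well, with 6.53% and 3.99% against 5.26% and 4.15%. A share of nuclei is not a share of cells in the tissue, because the yield of nuclei from each cell type was not tested. The mitochondrial limit also acted unequally on the classes. At 1%, cardiomyocyte-like nuclei made up 88.7% and 72.7% of WT-CD nuclei and 92.0% and 99.4% of R403Q-EMPA nuclei. The part of the 5% limit in the differences between groups was not tested.

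**Figure D1:**
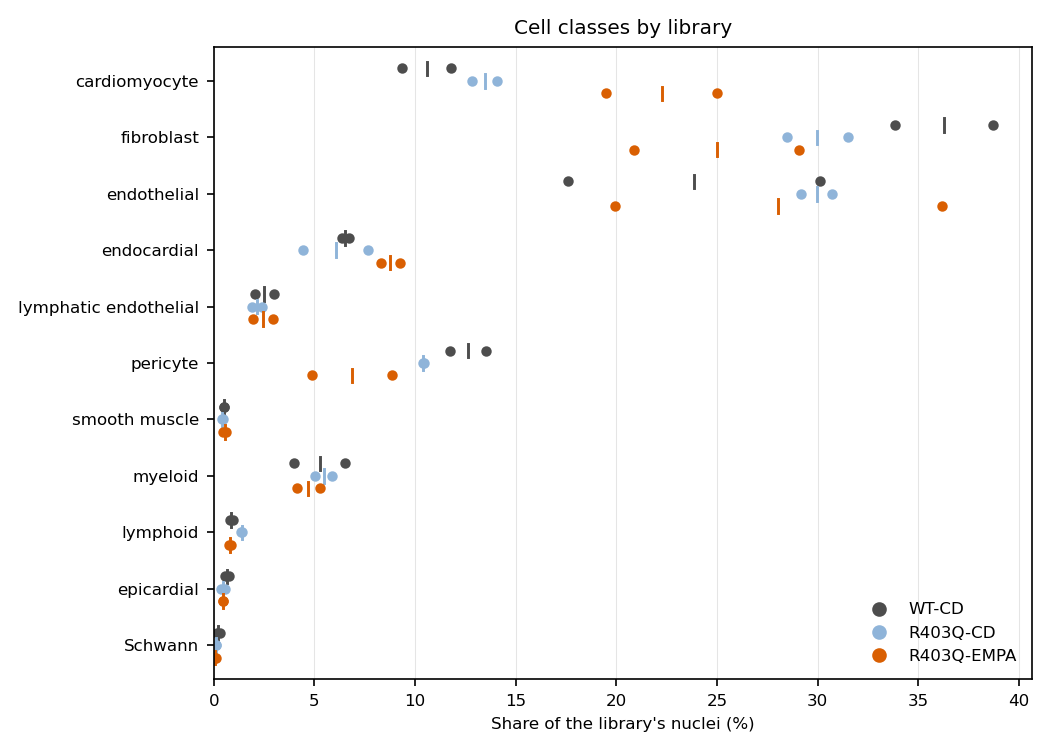
Share of nuclei (percent, linear axis from 0) in the main cell classes, with a point for each library and a bar for each group mean. The cardiomyocyte-like share was 19.5% and 25.0% in R403Q-EMPA against 11.8% and 9.36% in WT-CD, the fibroblast-like share lay lower in both treated libraries, and the endothelial-like shares overlapped.

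Over all nuclei, the genes with the largest changes under the naming rule included the natriuretic peptide Nppa and the heat-shock chaperones Hspa1a and Hspa1b, which were higher, and the clock genes Nr1d1 and Dbp, which were lower. In all, 863 of 19233 genes passed an adjusted p of 0.05 in edgeR's quasi-likelihood test, which is 4.49% of those tested, with 431 higher and 432 lower in R403Q-EMPA. With 1 library left out the count was 682 without WT-CD replicate 1, 531 without R403Q-EMPA replicate 2 and 284 to 360 without any of the other 4. In no called gene did the groups overlap, whereas 46.8% of all genes tested did not overlap between these 4 libraries. Sums over all nuclei move both with the number of nuclei of a class and with RNA per nucleus, which cannot be told apart in a sum. Levels were therefore also computed with each class held at its mean share of UMI. These used unscaled CPM after doublet removal, with 0.5 CPM added to each group mean, which shrinks differences of genes with low counts. The measured values used TMM scaling with doublets kept, and the part of these settings in the shrinkage below was not tested. Held in this way, 427 of the 431 higher genes and 427 of the 432 lower genes kept their sign, and the median log2 difference moved from 1.13 to 0.65 among higher genes and from -1.0 to -0.54 among lower genes. The held difference was over 1 on the log2 scale in 116 of the higher genes and below -1 in 61 of the lower genes. In 128 higher and 201 lower genes the change that class shares alone would give was larger than the held difference. Within cardiomyocyte-like, fibroblast-like or endothelial-like nuclei, 173 of the higher and 105 of the lower genes were called in the same direction.

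The gene with the largest log2 fold change among those named over all nuclei was Nppa (ENSMUSG00000041616), which encodes atrial natriuretic peptide, a hormone that ventricular myocytes make little of in healthy adults. It lay at 26.2 and 16.0 CPM in WT-CD, at 84.7 and 108 in R403Q-CD and at 792 and 217 in R403Q-EMPA. Each treated library lay above each untreated library, and replicate 1 was the higher by far. The log2 fold change against WT-CD was 4.58 ± 0.61 (SE, edgeR adjusted p = 0.013), 3.36 without R403Q-EMPA replicate 1 and 5.23 without replicate 2. It did not pass without WT-CD replicate 1 (4.98) or WT-CD replicate 2 (4.27). With class shares held the log2 difference was 4.18 for Nppa. Nppb, the B-type natriuretic peptide of the ventricle, lay at 8.25 and 7.50 CPM in WT-CD, at 13.1 and 26.2 in R403Q-CD and at 50.9 and 63.2 in R403Q-EMPA (log2 2.85 ± 0.31, adjusted p = 0.0093), and did not pass without WT-CD replicate 2 (2.78). Ptgds, the synthase of prostaglandin D2, rose from 46.1 and 44.9 CPM to 256 and 516 (log2 3.09 ± 0.31, and 2.49 without R403Q-EMPA replicate 2), with 179 and 170 in R403Q-CD.

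Several of the other genes named at the top led a cluster of cardiomyocyte-like nuclei. Scube2, a secreted protein, rose from 4.61 and 5.61 CPM to 37.9 and 48.0 (log2 3.07 ± 0.31), with 9.38 and 18.1 in R403Q-CD. Ryr3, a calcium release channel of the ryanodine receptor family, went from 2.78 and 8.13 to 88.1 and 26.7 (log2 3.40 ± 0.72), and the call was lost without either WT-CD library (2.83 and 4.37) or without R403Q-EMPA replicate 1 (2.29). The uncharacterised transcripts 5830418P13Rik (log2 4.39) and Gm41505 (3.78, with 3.17 and 4.85 without WT-CD replicates 1 and 2) rose too. Scube2, Ryr3, Gm41505, 5830418P13Rik and Nppb were among the 10 leading genes of the same cluster, which held 48 and 23 nuclei of the WT-CD libraries and 733 and 508 of the R403Q-EMPA libraries. The part of this cluster in those fold changes was not tested. With class shares held the log2 difference was 2.26 for Scube2 and 2.78 for Ryr3.

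Among the lower genes, Grm8, a metabotropic glutamate receptor, fell from 52.6 and 35.4 CPM in WT-CD to 2.67 and 6.58 in R403Q-EMPA, with 30.9 and 20.6 in R403Q-CD (log2 -3.29 ± 0.42, adjusted p = 0.013, and -4.04 without R403Q-EMPA replicate 2). With class shares held the log2 difference was -2.74. Tll2, a metalloprotease of the tolloid family, fell from 69.9 and 71.1 to 9.04 and 12.5, with 42.9 and 27.7 in R403Q-CD (log2 -2.72 ± 0.24). Gna14, a G protein alpha subunit, fell by 2.24 on the log2 scale, and Atp1a4, a subunit of the sodium pump, fell by 2.69. Hpse2, a relative of heparanase, fell by 2.13. Grm8 and Gna14 led a fibroblast-like cluster of 220 and 132 nuclei in WT-CD and 25 and 29 in R403Q-EMPA, and Tll2 and Gna14 led another of 1627 and 1116 against 307 and 643, whose part was not tested. With class shares held the log2 difference was -2.08 for Tll2 and -1.60 for Gna14. Cyp26b1 (ENSMUSG00000063415), which breaks down retinoic acid, fell from 17.2 and 15.6 CPM to 2.85 and 3.54, with 4.08 and 7.05 in R403Q-CD (log2 -2.37 ± 0.28, adjusted p = 0.011). Its difference with class shares held was -2.35. It was the only gene called of 12 tested in a list of retinoid metabolism, a share not far from the 4.49% of all genes.

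**Figure D2:**
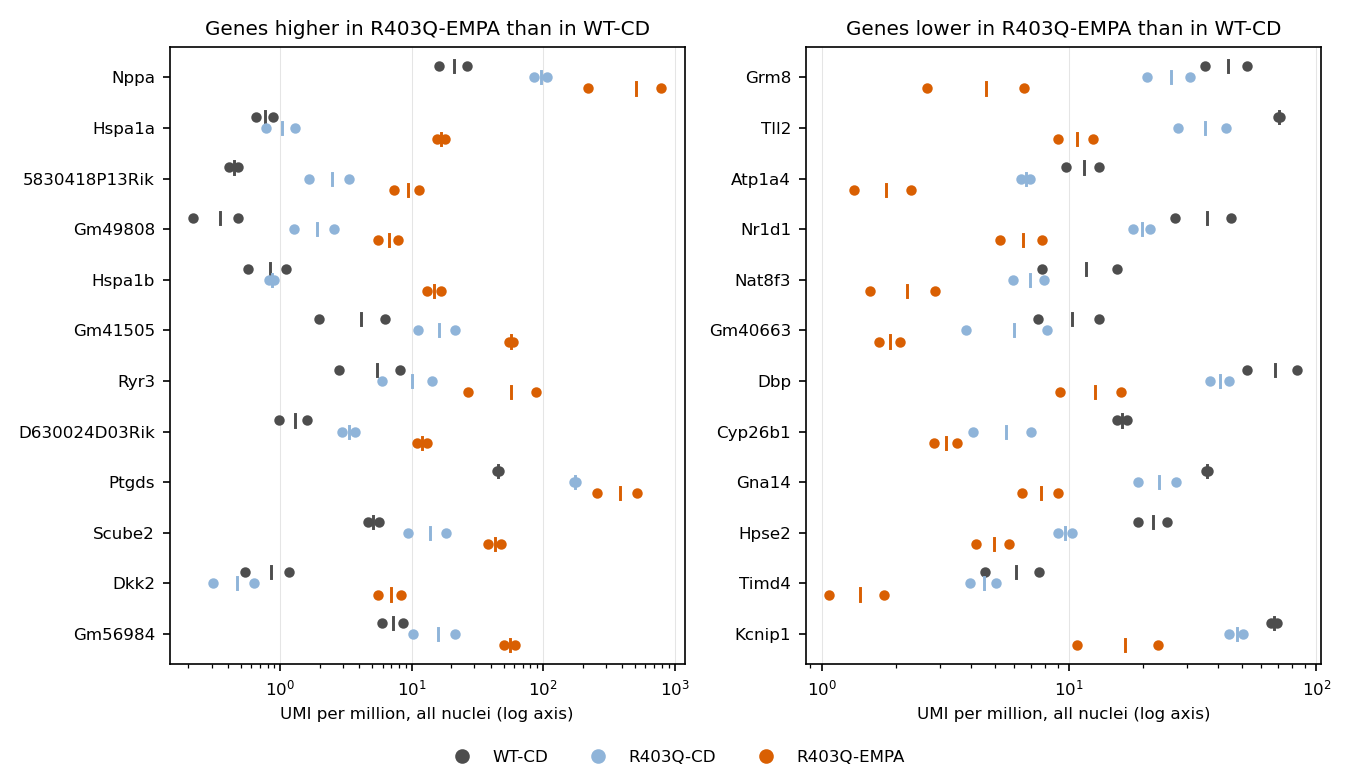
Levels over all nuclei (CPM, logarithmic axis) of the 12 highest and 12 lowest genes named by the fixed rule, with a point for each of 2 libraries per group and a line for the group mean. Nppa lay at 792 and 217 in R403Q-EMPA against 26.2 and 16.0 in WT-CD, and in every gene shown both treated libraries lay on the same side of both wild-type libraries, as the rule required.

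**Figure D3:**
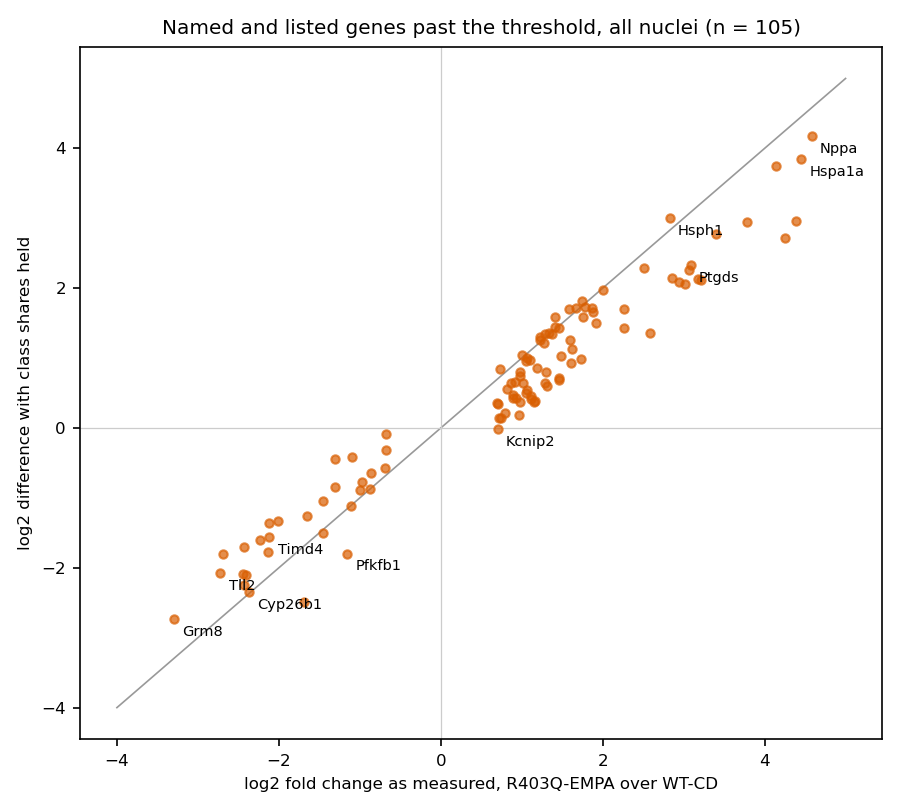
Log2 fold change over all nuclei (x axis) against the log2 difference with each cell class held at its mean share of UMI (y axis), for 105 named and listed genes past the threshold, with the line of equal values. Only the y axis used unscaled CPM with 0.5 CPM added to each group mean. In 89 of the 105 genes the held difference was nearer to 0, and 104 kept their sign, the exception being Kcnip2 (0.70 as measured, -0.02 held).

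Most heat-shock chaperones were called higher over all nuclei, in a list of cytosolic proteins that also holds the mitochondrial pair Hspd1 and Hspe1 and the factor Hsf1. These proteins bind unfolded clients and are induced by the factor HSF1, which binds heat-shock elements in their promoters. Of 23 chaperone genes tested 19 were higher and 0 lower, with a median log2 fold change of 1.38 beside -0.0036 over all genes tested. Hsph1 (ENSMUSG00000029657), the exchange factor HSP105, was chosen for display because it was called in 7 classes, and the inducible HSP70 genes Hspa1a (ENSMUSG00000091971) and Hspa1b because they had the largest log2 fold changes of the list. Their promoters are shown as the 250 bases before the start, 5′ to 3′ on the minus strand (RefSeq, GRCm38.p6, which is not the build of the counts), with the heat-shock element in capitals. The windows are chr5:149636337-149636586 for Hsph1, chr17:34972157-34972406 for Hspa1a and chr17:34959239-34959488 for Hspa1b.
Hsph1: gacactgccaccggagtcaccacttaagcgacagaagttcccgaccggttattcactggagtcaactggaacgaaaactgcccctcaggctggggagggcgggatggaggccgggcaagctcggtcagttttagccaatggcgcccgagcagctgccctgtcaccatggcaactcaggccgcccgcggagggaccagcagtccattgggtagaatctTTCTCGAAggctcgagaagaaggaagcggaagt
Hspa1a: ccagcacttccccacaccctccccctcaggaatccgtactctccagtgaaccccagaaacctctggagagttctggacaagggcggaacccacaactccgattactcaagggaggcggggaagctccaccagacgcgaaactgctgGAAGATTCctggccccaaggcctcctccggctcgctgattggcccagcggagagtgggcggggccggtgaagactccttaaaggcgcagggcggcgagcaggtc
Hspa1b: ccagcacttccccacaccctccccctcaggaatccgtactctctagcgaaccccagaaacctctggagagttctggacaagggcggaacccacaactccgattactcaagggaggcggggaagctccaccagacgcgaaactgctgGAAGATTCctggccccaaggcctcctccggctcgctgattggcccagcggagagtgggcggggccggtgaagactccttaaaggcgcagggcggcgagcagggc

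The element lay 33 bases before the start of Hsph1 used here, 54 bases before another start given in the RefSeq set, and 104 bases before that of Hspa1a and of Hspa1b. It was searched as GAANNTTC or TTCNNGAA, a match to both strands at once. Of the 15 called chaperone genes with a promoter in the RefSeq set, 7 held it, as did 2 of the 3 that were not called, beside 14.5% of 27025 genes. The windows of Hspa1a and Hspa1b differed at 3 of 250 bases, and their transcripts are so alike that reads could be assigned to either, so the pair is uncertain as separate genes.

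Hsph1 lay at 18.9 and 15.8 CPM in WT-CD, at 26.3 and 21.7 in R403Q-CD and at 129 and 117 in R403Q-EMPA (log2 2.83 ± 0.16, adjusted p = 0.0031). With class shares held its log2 difference was 3.00. Hspa1a lay at 0.875 and 0.650 CPM in WT-CD, at 0.775 and 1.29 in R403Q-CD and at 18.0 and 15.6 in R403Q-EMPA (log2 4.45 ± 0.29). Both treated libraries stood far above the other 4, which overlapped. Stip1, which hands clients from HSP70 to HSP90, rose from 19.2 and 16.4 to 72.4 and 70.4 (log2 2.00 ± 0.14), and Hspa4l, an exchange factor, from 36.2 and 39.9 to 126 and 135 (log2 1.78 ± 0.12). Hsf1 itself, the inducing factor, lay at 35.7 and 39.2 CPM in WT-CD and 38.1 and 38.9 in R403Q-EMPA (log2 0.04 ± 0.11, adjusted p = 0.88). Leaving out each library in turn gave 12 to 22 higher chaperone genes, the fewest without R403Q-EMPA replicate 1, and 0 lower. Chaperones of the endoplasmic reticulum, a separate list, had 2 of 19 higher, Hyou1 (0.73) and Atf6 (0.89), beside 2.24% of all genes called higher, with a median of 0.53. Neither passed without either R403Q-CD library, and Atf6 ranged from 0.64 to 1.10 over the libraries left out.

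Circadian clock genes were called in both directions, with 10 called and 10 not. The factors BMAL1 and CLOCK activate Nr1d1, Nr1d2, Per3, Ciart, Dbp, Tef and Hlf through E-boxes, and the NR1D proteins in turn repress Arntl (the gene of BMAL1) and Nfil3. Of 20 clock genes tested 2 were higher (Arntl and Nfil3) and 8 lower (Nr1d1, Dbp, Hlf, Ciart, Nr1d2, Per3, Tef and Cry2), beside 2.24% and 2.25% of all genes, with a median of -0.44. With 1 library left out, 2 to 3 were higher and 4 to 6 lower, the fewest calls (6) without either R403Q-CD library, and a mitochondrial limit of 1% left 5. Under that limit most nuclei of each library were cardiomyocyte-like, so the 5 calls come from another mix of cells. Ciart (ENSMUSG00000038550), a repressor of the clock, was chosen for display because it held the most E-boxes. Its window is chr3:95882229-95882478 on the minus strand (RefSeq, GRCm38.p6), with the E-boxes in capitals.
Ciart: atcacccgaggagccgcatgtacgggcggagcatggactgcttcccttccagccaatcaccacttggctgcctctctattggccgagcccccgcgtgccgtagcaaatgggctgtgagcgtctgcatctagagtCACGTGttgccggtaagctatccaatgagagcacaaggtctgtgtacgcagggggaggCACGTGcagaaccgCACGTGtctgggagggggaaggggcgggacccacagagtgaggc

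The E-box CACGTG, which reads the same on both strands, began its 3 matches in this window 116, 58 and 44 bases before the start. It was found in 2 of the 10 called clock genes with a promoter in the table (Tef and Ciart) and in 3 of the 7 not called (Per1, Cry1 and Bhlhe41), beside 6.86% of all genes. The D-box TTATGNAA, searched on both strands and bound by DBP, TEF, HLF and NFIL3, was found in 1 called gene (Per3) and 1 not called (Per1), beside 3.63% of all genes. Distal elements lie outside these windows.

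Arntl (ENSMUSG00000055116) lay at 4.45 and 8.05 CPM in WT-CD, at 10.2 and 9.84 in R403Q-CD and at 31.7 and 39.6 in R403Q-EMPA (log2 2.51 ± 0.27, adjusted p = 0.0091). Nfil3, a repressor that competes with DBP, rose from 3.53 and 5.04 to 17.8 and 23.5 (log2 2.27 ± 0.24), with 8.75 and 7.15 in R403Q-CD. Dbp (ENSMUSG00000059824) fell from 83.9 and 52.3 CPM in WT-CD to 16.3 and 9.21 in R403Q-EMPA, with 37.2 and 44.4 in R403Q-CD (log2 -2.41 ± 0.31, adjusted p = 0.013). For both Arntl and Dbp the R403Q-CD libraries lay between the other groups. Nr1d1, a nuclear receptor that represses Arntl, fell from 45.1 and 26.9 to 7.81 and 5.25 (log2 -2.45 ± 0.29), with 18.2 and 21.3 in R403Q-CD. Hlf fell by 1.45 and Nr1d2 by 1.00 on the log2 scale. These 6 calls held with each library left out. The other called clock genes did not hold so well. Ciart (-1.45) lost its call whichever of the 6 libraries was left out, ranging from -1.77 to -1.05. Tef (-0.88) passed only without R403Q-EMPA replicate 2, and Per3 (-0.97) and Cry2 (-0.69) only without either WT-CD library. Clock (log2 0.53, adjusted p = 0.068) and the period gene Per1 (-0.42, adjusted p = 0.11) did not pass.

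**Figure D4:**
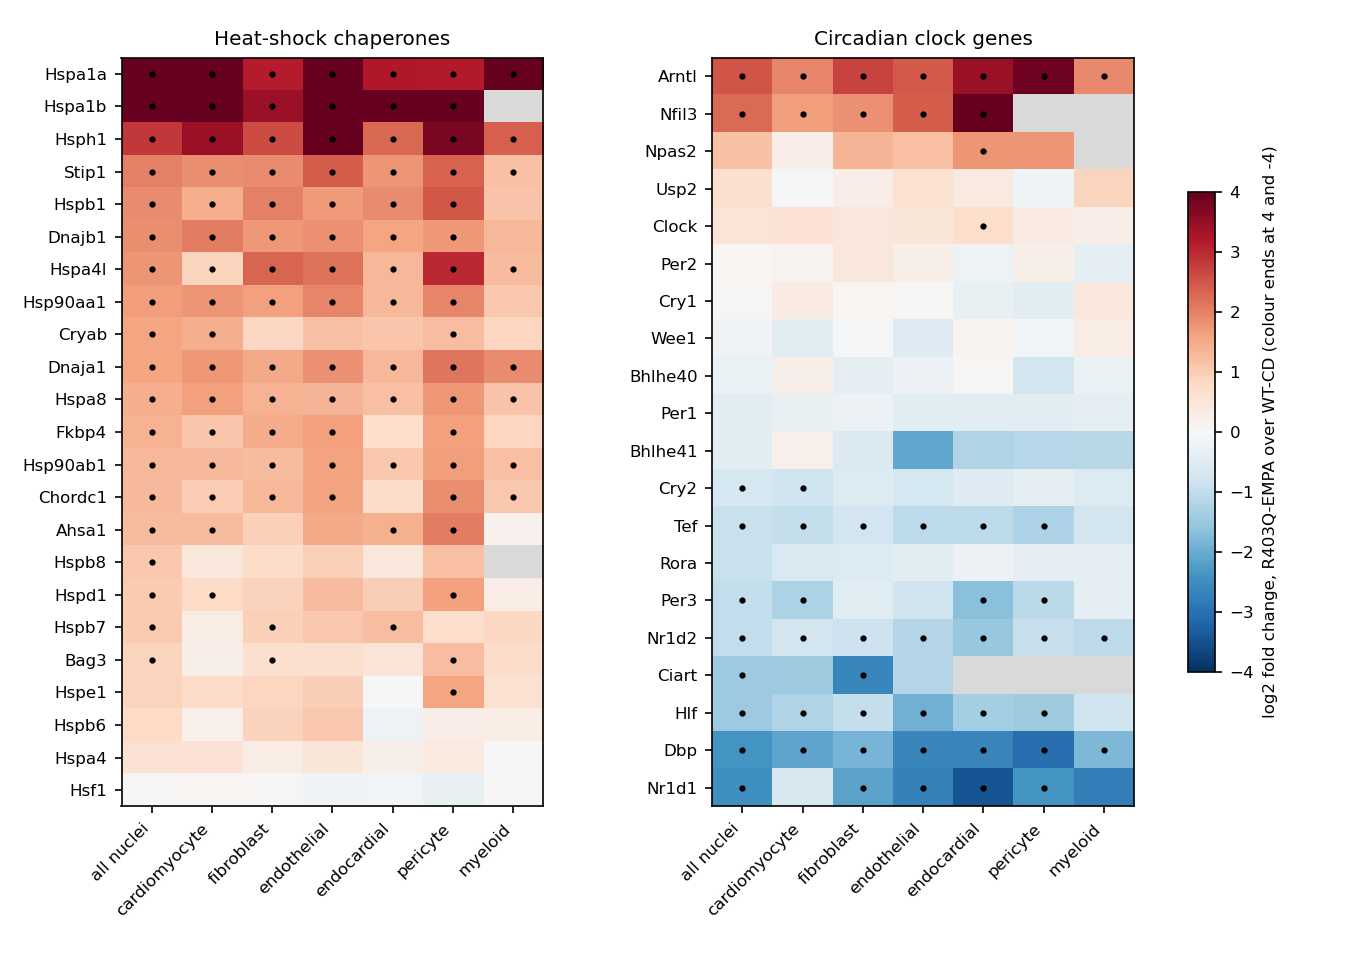
Log2 fold change of R403Q-EMPA over WT-CD (colour, ends at 4 and -4) for 23 chaperone genes and 20 clock genes over all nuclei and in 6 cell classes. Dots mark an edgeR adjusted p under 0.05 and grey marks genes not tested, and dotted cells are red throughout the chaperone panel (19 of 23 over all nuclei) and of both colours in the clock panel (2 higher, 8 lower).

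The same directions were seen within classes, which share libraries and so are not independent replicates. Chaperone genes called higher numbered 16 of 23 tested in cardiomyocyte-like nuclei (median log2 1.28), 15 of 23 in fibroblast-like (1.34), 13 of 23 in endothelial-like (1.6), 13 of 23 in endocardial-like (1.20), 18 of 23 in pericyte-like (1.72) and 8 of 21 in myeloid-like nuclei (1.06), with 0 lower in each. Background shares of genes called were 3.99%, 1.23%, 0.748%, 2.18%, 1.67% and 0.509% of all genes tested in these classes, in the same order, and the median over all genes lay within 0.01 of 0 in each. Leaving out each library in turn gave 9 to 16 called chaperones in cardiomyocyte-like, 5 to 20 in fibroblast-like and 8 to 20 in endothelial-like nuclei, in each case the fewest without R403Q-EMPA replicate 1. Clock genes had 2 higher and 6 lower of 20 in cardiomyocyte-like, 2 and 6 of 20 in fibroblast-like, 2 and 5 of 20 in endothelial-like, 4 and 6 of 19 in endocardial-like, 1 and 6 of 18 in pericyte-like and 1 and 2 of 17 in myeloid-like nuclei. Over the libraries left out, 3 to 10 clock genes were called in cardiomyocyte-like nuclei and 2 to 9 in fibroblast-like and in endothelial-like nuclei, and the lowest of these counts were without R403Q-EMPA replicate 1, and in cardiomyocyte-like nuclei also without replicate 2. With the 4 compared libraries alone, endothelial-like nuclei had 1 clock gene higher and 0 lower. Of 1106 genes called in at least 1 class, 155 were called in at least 2 and 13 in at least 6. Hsph1 (higher) and Nr1d2 (lower) were called in 7. The other 11 in at least 6 were Hspa1a, Hspa8, Hspa4l, Hsp90ab1, Dnaja1, Stip1, Ahsa2, Arntl, Dbp, Nppa and P4ha1. So 8 of the 13 were chaperones or their cofactors and 3 were clock genes, where Ahsa2 is a cofactor outside the list of 23. This set was read after the values were seen.

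In cardiomyocyte-like nuclei both natriuretic peptides and 4 other genes of the natriuretic and stretch list were called higher. Here 573 of 14359 genes were called (3.99%), with 249 higher and 324 lower. With 1 library left out the count was 123 or 349 (R403Q-EMPA replicate 1 or 2), 295 or 287 (R403Q-CD replicate 1 or 2) and 887 or 639 (WT-CD replicate 1 or 2). Nppa lay at 60.0 and 36.5 CPM of the class in WT-CD, at 142 and 238 in R403Q-CD and at 1400.0 and 357 in R403Q-EMPA (log2 4.18 ± 0.59, adjusted p = 0.0072). It was 2.89 without R403Q-EMPA replicate 1 and 4.86 without replicate 2. Nppb lay at 27.8 and 28.3 in WT-CD, at 40.3 and 74.5 in R403Q-CD and at 116 and 114 in R403Q-EMPA (log2 2.03 ± 0.25, adjusted p = 0.0050). For both hormones the R403Q-CD libraries lay between the other groups. Of 14 natriuretic and stretch genes tested, 6 were higher and 0 lower, with a median of 0.81, and 3 were higher without R403Q-EMPA replicate 1. The other 4 were Flnc, a filamin of the Z-disc (60.9 and 71.2 against 169 and 139, log2 1.22 ± 0.19), Mybpc2, the fast skeletal form of myosin-binding protein C (4.04 and 3.15 against 11.5 and 12.8, log2 1.75), the intermediate filament Des (0.73) and the Z-disc protein Synpo2l (0.88). Flnc did not pass without R403Q-EMPA replicate 1 (1.08). Des and Synpo2l each lost the call without 5 of the 6 libraries, with ranges of 0.61 to 0.85 and 0.62 to 1.21.

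None of 20 adult sarcomere genes was called in cardiomyocyte-like nuclei, a count near the 3.99% of all genes called, and their median log2 fold change was 0.03. The mutated gene Myh6 lay at 7265 and 10196 CPM in WT-CD and 8093 and 7704 in R403Q-EMPA (log2 -0.14 ± 0.27, adjusted p = 0.82). Ttn, the giant spring of the sarcomere, had a log2 fold change of 0.09 ± 0.33, and Myh7, the slow myosin that returns in many models of hypertrophy, lay at 492 and 393 against 399 and 331 (log2 -0.28 ± 0.18, adjusted p = 0.45). These groups overlapped. Acta1, skeletal actin, lay at 17.2 and 22.9 against 64.1 and 30.4 (log2 1.24 ± 0.35) and did not pass, with an adjusted p of 0.088 and a log2 fold change of 0.61 without R403Q-EMPA replicate 1. Of 8 atrial and fetal sarcomere genes tested 2 were called, beside 3.99% of all genes. Tpm2, beta-tropomyosin, rose from 1.68 and 1.51 to 16.7 and 8.88 CPM (log2 3.00 ± 0.39, adjusted p = 0.0059). Myl7, the atrial light chain, gave 3 and 0 UMI in WT-CD, at 2 and 2 in R403Q-CD and at 98 and 34 in R403Q-EMPA, a 29.3-fold difference (95% counting interval 9.80 to 144), and 16.8 without R403Q-EMPA replicate 1. Other atrial markers in these nuclei were Bmp10 at 0 UMI in all 6 libraries, Sln at 0 and 0 against 17 and 2, Dkk3 at 2 and 2 against 55 and 15, Mybphl at 2 and 5 against 27 and 3 and Nr2f1 at 1 and 0 against 4 and 3 UMI. Before TMM scaling, Myl4 lay at 4.59 and 4.73 against 11.6 and 7.62 CPM, and Kcnj3 at 617 and 639 against 351 and 473. Over all nuclei the 8 atrial markers summed to 191 and 180 unscaled CPM in WT-CD and 190 and 262 in R403Q-EMPA. The part of atrial nuclei in these changes was not tested.

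The class drew on its clusters in different proportions in the 2 groups. A cluster led by Mylk4 and Kcnj3 held 1014 and 622 nuclei of WT-CD and 441 and 899 of R403Q-EMPA, a cluster led by Ryr3 and Scube2 held 48 and 23 against 733 and 508, and a cluster led by Nppa and Rgs6 held 61 and 68 against 375 and 195. Their part in the fold changes of the class was not tested. Median depth per nucleus also varied, from 7247 to 12083 UMI in WT-CD and from 6888.5 to 9117 in R403Q-EMPA.

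Genes that fell in cardiomyocyte-like nuclei included a kinase, an enzyme that tunes glycolysis and a sodium channel. Mylk4, a myosin light chain kinase of heart muscle, fell from 556 and 573 CPM in WT-CD to 67.6 and 108 in R403Q-EMPA, with 206 and 247 in R403Q-CD (log2 -2.68 ± 0.24, adjusted p = 0.0017). Pfkfb1, which sets the level of fructose 2,6-bisphosphate, an activator of glycolysis, fell from 100.2 and 80.1 to 17.8 and 24.6, with 43.1 and 43.4 in R403Q-CD (log2 -2.10, adjusted p = 0.0017). For both genes all 3 groups were separate, with R403Q-CD between. Scn4a, the skeletal muscle sodium channel, fell from 10.8 and 12.6 to 1.94 and 2.59 (log2 -2.37), and did not pass without R403Q-EMPA replicate 1 (-2.16). Sorcs2 (-2.41), a sorting receptor, fell as well. Kcnc1, a Kv3 potassium channel, rose from 0.785 and 1.51 to 6.08 and 5.43, with 6.21 and 5.92 in R403Q-CD (log2 2.33), and did not pass without R403Q-EMPA replicate 1 (2.25). P3h2, a prolyl hydroxylase of collagen, rose from 2.47 and 2.90 to 49.3 and 22.2 (log2 3.74, and 3.06 without R403Q-EMPA replicate 1).

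Of the fuel lists, branched-chain amino acid and ketone breakdown had 0 genes higher and 4 of 24 lower in cardiomyocyte-like nuclei, beside 2.26% of all genes called lower, with a median of -0.22. Bckdha, a subunit of the branched-chain ketoacid dehydrogenase, fell from 45.7 and 46.0 CPM to 14.4 and 21.7, with 57.3 and 34.7 in R403Q-CD (log2 -1.35, adjusted p = 0.021). It did not pass without WT-CD replicate 2 (-1.34) or R403Q-EMPA replicate 1 (-1.07). Bckdhb (-0.78) and Dbt (-0.81), subunits of the same complex, and Mccc1 (-0.73), of leucine breakdown, were called close to the threshold. Each of these 3 lost its call without at least 5 of the 6 libraries, with values between -0.93 and -0.61. Among 32 genes of fatty acid use 1 was called, no larger a share than the 3.99% of all genes. This was Cpt1a, the liver form of the enzyme that admits fatty acids to mitochondria, which was lower (124 and 142 against 74.5 and 65.7 CPM, log2 -0.92, adjusted p = 0.012). It did not pass without R403Q-EMPA replicate 1 (-1.01) or replicate 2 (-0.83). Among 32 genes of glucose use Pfkp (1.39), a phosphofructokinase, and Pgam1 (0.91) were higher and Pfkfb1 was lower, and Pfkp fell to 0.82 without R403Q-EMPA replicate 1. Pfkp and Pgam1 each lost the call without 4 of the 6 libraries. The 13 mitochondrially encoded genes are not read as a result, since the limit on their share of UMI chose the nuclei.

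Genes of the hypoxia response had 3 of 16 higher and 0 lower in cardiomyocyte-like nuclei, beside 1.73% of all genes called higher, with a median of 0.40. P4ha1 (ENSMUSG00000019916), a prolyl hydroxylase needed for collagen, lay at 41.1 and 41.2 CPM in WT-CD, at 48.9 and 54.1 in R403Q-CD and at 166 and 164 in R403Q-EMPA (log2 2.00 ± 0.14, adjusted p = 6e-04). Egln3, an oxygen sensor, rose from 19.6 and 25.6 to 62.9 and 49.2 (log2 1.31), and did not pass without R403Q-EMPA replicate 1 (1.13). Bnip3, a mitophagy receptor, lay at 34.6 and 55.9 in WT-CD and 81.1 and 99.9 in R403Q-EMPA (log2 1.00), with 93.9 and 84.5 in R403Q-CD, and lost the call without 5 of the 6 libraries (0.69 to 1.39). P4ha1 was also higher in fibroblast-like (1.26), endothelial-like (2.06), endocardial-like (1.39), pericyte-like (1.76) and lymphatic endothelial-like nuclei (1.57), and over all nuclei (1.41), where 5 of 18 hypoxia genes were higher beside 2.24% of all genes. In cardiomyocyte-like nuclei the chaperone Hsph1 rose from 5.83 and 5.17 to 67.8 and 49.3 (log2 3.41 ± 0.21), and Cryab, the small chaperone of the Z-disc, from 75.9 and 52.8 to 181 and 171 (log2 1.45). Of the clock genes there, Nr1d1 lay at 6.84 and 5.04 against 4.34 and 3.19 and did not pass (log2 -0.65, adjusted p = 0.27).

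In fibroblast-like nuclei a few matrix genes rose steeply. Here 185 of 15067 genes were called (1.23%), with 94 higher and 91 lower. With 1 library left out the count was 24 or 449 (R403Q-EMPA replicate 1 or 2), 68 or 59 (R403Q-CD replicate 1 or 2) and 585 or 203 (WT-CD replicate 1 or 2). Of 28 matricellular and activation genes tested 4 were higher and 0 lower, with a median log2 fold change of 1.24. Thbs4 (ENSMUSG00000021702), a thrombospondin of injured muscle and tendon, lay at 0.699 and 0.379 CPM in WT-CD, at 0.768 and 3.00 in R403Q-CD and at 79.6 and 17.5 in R403Q-EMPA (log2 6.47 ± 0.88, adjusted p = 0.017). It was 4.97 without R403Q-EMPA replicate 1 and 7.16 without replicate 2, and did not pass without WT-CD replicate 2 (6.13). Comp, a thrombospondin of cartilage, lay at 2.71 and 0.947 in WT-CD, at 0.329 and 1.5 in R403Q-CD and at 17.5 and 18.9 in R403Q-EMPA (log2 3.29, adjusted p = 0.020). It was 4.24 without WT-CD replicate 1 and did not pass without R403Q-EMPA replicate 1 (3.34). Spp1, the matrix cytokine osteopontin, gave 0 UMI in both WT-CD libraries and 184 in R403Q-EMPA, at least 112-fold higher against a floor of 3 counts over the group, and at least 29.6-fold without R403Q-EMPA replicate 1. Lox, which crosslinks collagen, rose from 10.7 and 7.95 to 20.3 and 19.2 (log2 1.09), a call lost without 5 of the 6 libraries (0.90 to 1.31). Comp is also on a list of 8 tendon and valve markers. In the same nuclei Fmod gave 3 and 1 UMI in WT-CD against 17 and 10 in R403Q-EMPA, Chad 2 and 2 against 11 and 5, Tnmd 2 and 0 against 2 and 8, Scx 3 and 0 against 4 and 4, Cilp2 3 and 3 against 3 and 4, Mkx 13 and 8 against 5 and 3 and Kera 0 and 0 against 3 and 0. The part of such cells in these changes was not tested.

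Of 29 collagen genes tested 3 were called, beside 1.23% of all genes. Col11a1 (3.15 and 1.14 against 19.5 and 13.3 CPM, log2 2.93) and Col12a1 (5.33 and 6.15 against 34.1 and 17.3, log2 2.18) were higher and Col4a3, of basement membranes, was lower (140.0 and 142 against 80.3 and 92.3, log2 -0.71). Without R403Q-EMPA replicate 1 none of these passed (2.61, 1.59 and -0.61). Col11a1 was 3.85 without WT-CD replicate 1 and did not pass without replicate 2 (2.40), Col12a1 did not pass without either (2.08 and 2.30), and Col4a3 did not pass without either R403Q-CD library. Col1a1, the main chain of fibrillar collagen, lay at 290 and 111 in WT-CD, at 137 and 150.1 in R403Q-CD and at 456 and 208 in R403Q-EMPA (log2 0.73 ± 0.44, adjusted p = 0.49), and the groups overlapped. Postn, periostin, a marker of activated fibroblasts, lay at 27.5 and 21.0, 26.4 and 57.7, and 448 and 68.3 in the same order (log2 3.42 ± 0.74, adjusted p = 0.069). Postn was thus far higher in R403Q-EMPA replicate 1 than in any other library, and its log2 fold change without that library was 1.49. Cilp, a matrix protein, lay at 9.44 and 7.57 in WT-CD and 86.9 and 21.4 in R403Q-EMPA (log2 2.69 ± 0.53, adjusted p = 0.054), and its log2 fold change was 1.33 without R403Q-EMPA replicate 1 and 3.35 without replicate 2.

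The steepest falls in fibroblast-like nuclei were those of Grm8 (151 and 112 against 8.62 and 19.2 CPM, log2 -3.29 ± 0.33, and -3.93 without R403Q-EMPA replicate 2), Hpse2 (52.3 and 72.4 against 9.70 and 11.5, log2 -2.57), Atp1a4 (18.5 and 26.5 against 3.64 and 5.95, log2 -2.27) and Tll2 (208 and 228 against 44.1 and 52.4, log2 -2.18). In R403Q-CD these genes lay at 104 and 77.1, 30.4 and 27.1, 16.5 and 15.2, and 150.4 and 106 CPM, between the other groups. The fibroblast-like cluster led by Kcnip1, Tenm4 and Tll2 held 1627 and 1116 nuclei of WT-CD and 307 and 643 of R403Q-EMPA, and the cluster led by Ltbp2 and Has2 held 897 and 541 against 912 and 558. At a coarser cluster resolution of 0.5, a fibroblast-like cluster led by Ltbp2, Cilp, Thbs4, Col11a1, Postn and Col12a1 held 54 and 37 nuclei of WT-CD and 434 and 100 of R403Q-EMPA. The part of these clusters in the changes of the class was not tested. Piezo2, a mechanically gated channel, lay at 8.83 and 6.53 in WT-CD, at 7.02 and 14.6 in R403Q-CD and at 190 and 30.8 in R403Q-EMPA. Its log2 fold change of 3.85 passed only without R403Q-EMPA replicate 2 (4.62) when a library was left out, and was 2.00 without replicate 1. Among chaperones of the endoplasmic reticulum, which fold secreted proteins, Pdia6 (1.24) and Hyou1 (1.31) were higher of 19 tested, beside 0.624% of all genes called higher, and neither passed without R403Q-EMPA replicate 1 (1.17 and 1.38). Pdia6 also lost the call without either R403Q-CD library (1.25 and 1.25). Hsph1 rose in this class from 32.4 and 27.1 to 176 and 189 (log2 2.62).

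In endothelial-like nuclei heat-shock genes led the changes. Here 105 of 14046 genes were called (0.748%), with 71 higher and 34 lower. With 1 library left out the count was 14 or 148 (R403Q-EMPA replicate 1 or 2), 47 or 44 (R403Q-CD replicate 1 or 2) and 585 or 213 (WT-CD replicate 1 or 2). Hspa1a lay at 1.14 and 0.701 CPM in WT-CD, at 1.05 and 1.14 in R403Q-CD and at 39.3 and 63.7 in R403Q-EMPA (log2 5.82 ± 0.38, adjusted p = 8.6e-04). Hsph1 rose from 13.5 and 6.73 to 152 and 153 (log2 3.98) and Stip1 from 19.6 and 16.1 to 89.3 and 101 (log2 2.42). All 3 calls held with each library left out. Thbs1, thrombospondin 1, an inhibitor of vessel growth, rose from 1.6 and 1.26 to 10.8 and 8.40 (log2 2.79), and Cdkn1a, the cell-cycle inhibitor p21, from 12.1 and 21.6 to 53.3 and 72.1 (log2 1.84). Without R403Q-EMPA replicate 1 neither passed (2.56 and 2.05), and Cdkn1a did not pass without replicate 2 either (1.62). Cyp26b1 fell from 116 and 67.9 CPM in WT-CD to 6.62 and 17.9 in R403Q-EMPA, with 17.8 and 32.6 in R403Q-CD (log2 -3.12 ± 0.47, adjusted p = 0.028). It did not pass without R403Q-EMPA replicate 1 (-2.36) and was -3.79 without replicate 2. R403Q-CD and R403Q-EMPA overlapped in this gene, and both lay below WT-CD. The endothelial-like cluster that had Cyp26b1 among its 10 leading genes held 539 and 683 nuclei of WT-CD and 316 and 352 of R403Q-EMPA, and its part was not tested. Cd247, known as the zeta chain of the T cell receptor, fell from 39.7 and 45.6 to 4.73 and 13.0 (log2 -2.52, and -1.73 without R403Q-EMPA replicate 1, which did not pass, and -3.18 without replicate 2). An endothelial-like cluster led by Sema3g, Gja5 and Sox17, genes known from arteries, held 133 and 280 nuclei of WT-CD and 918 and 177 of R403Q-EMPA, and its part was not tested.

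**Figure D5:**
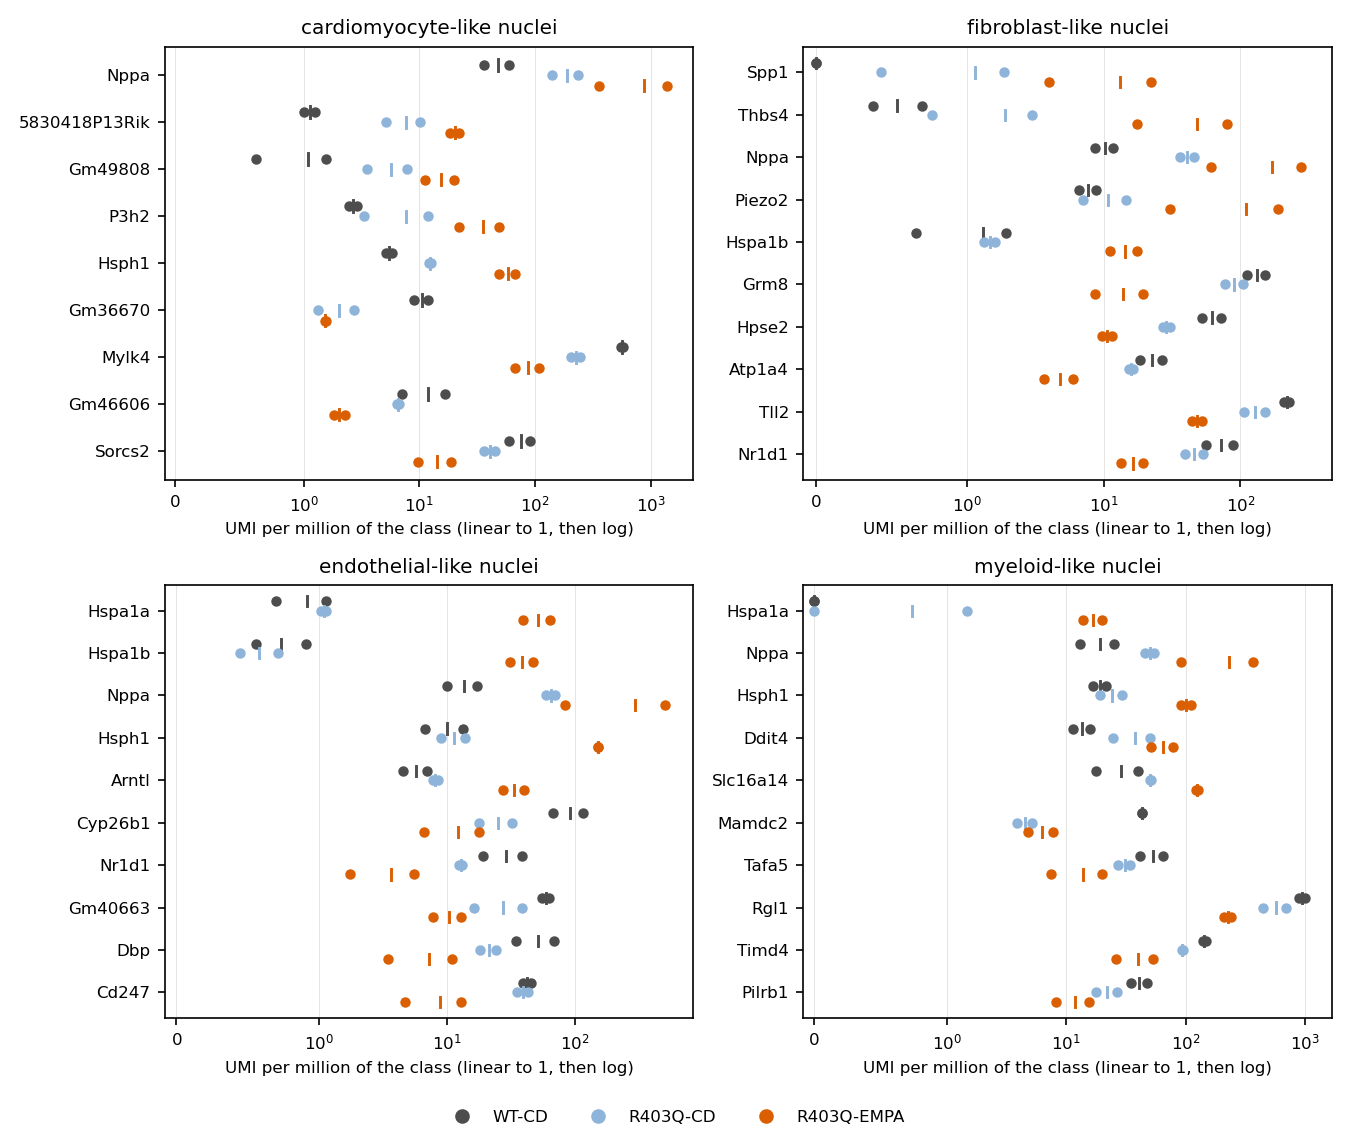
Levels of named genes, up to 5 higher and 5 lower in each of 4 cell classes (CPM of the class, axis linear to 1 and logarithmic above), with a point for each of 2 libraries per group and a line for the mean. In endothelial-like nuclei Hspa1a lay at 39.3 and 63.7 in R403Q-EMPA against 1.14 and 0.701 in WT-CD, and in cardiomyocyte-like nuclei Mylk4 lay at 67.6 and 108 against 556 and 573.

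Nppa was higher in every main class, including those that should lack it, and is not read as expression there. In fibroblast-like nuclei it lay at 11.6 and 8.62 CPM in WT-CD and 279 and 61.1 in R403Q-EMPA, which was 19.4% and 23.6% of the cardiomyocyte-like level in WT-CD and 19.96% and 17.1% in R403Q-EMPA. Over 5 non-cardiomyocyte classes and 6 libraries Nppa lay at 15.3% to 60.6% of the cardiomyocyte-like level, Tnnt2 at 5.88% to 19.9%, Myh6 at 3.26% to 9.25% and Ttn at 1.05% to 3.22%. Free RNA and misassigned nuclei were not removed, and their part in the changes of other classes was not tested.

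Endocardial-like nuclei had 251 of 11491 genes called (2.18%), with 155 higher and 96 lower, with 45 called without R403Q-EMPA replicate 1, 149 without R403Q-CD replicate 2 and 445 without WT-CD replicate 1. Arntl lay at 4.51 and 6.63 CPM in WT-CD, at 1.59 and 6.4 in R403Q-CD and at 72.5 and 50.9 in R403Q-EMPA (log2 3.46, adjusted p = 0.0017), and Nr1d1 at 38.1 and 14.7, 6.36 and 11.6, and 3.12 and 1.18 in the same order (log2 -3.46). Arntl was called without each library in turn, whereas Nr1d1 was -2.63 without WT-CD replicate 1 and did not pass without R403Q-EMPA replicate 1 (-4.39). Cdkn1a rose from 5.51 and 2.37 to 41.3 and 35.5 (log2 3.29, and 3.99 without WT-CD replicate 1). Hapln1, a link protein of hyaluronan matrix, rose from 6.01 and 0.474 to 40.6 and 58.0 (log2 3.91, with 6.50 and 3.01 without WT-CD replicates 1 and 2). The basement membrane collagens Col4a1 (0.95) and Col4a2 (0.97) rose, and neither passed without R403Q-EMPA replicate 1 (0.95 and 0.73).

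Pericyte-like nuclei had 199 of 11908 genes called (1.67%), with 120 higher and 79 lower, with 73 called without R403Q-EMPA replicate 1, 122 or 115 without R403Q-CD replicate 1 or 2 and 416 or 333 without WT-CD replicate 1 or 2. Hsph1 lay at 14.7 and 17.6 CPM in WT-CD, at 26.8 and 23.5 in R403Q-CD and at 223 and 216 in R403Q-EMPA (log2 3.76, adjusted p = 1.1e-08), and Hspa4l rose from 25.0 and 35.9 to 237 and 257 (log2 3.02). Tgfb2, a transforming growth factor, fell from 128 and 95.5 to 35.8 and 27.7, with 68.8 and 75.8 in R403Q-CD (log2 -1.81). Mthfd1l, an enzyme of mitochondrial folate metabolism, fell from 137 and 164 to 40.7 and 27.7, with 99.2 and 128 in R403Q-CD (log2 -2.13). These 4 calls held with each library left out. Sorl1, a sorting receptor, gave 83 UMI in WT-CD and 3 in R403Q-EMPA, an 11.5-fold difference (95% counting interval 3.79 to 56.7). In this class 5 of 20 adult sarcomere genes were called higher, Myh6 and Ttn among them, beside the levels of cardiomyocyte RNA given above.

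Myeloid-like nuclei had 55 of 10808 genes called (0.509%), with 23 higher and 32 lower, and 23 or 25 without R403Q-CD replicate 1 or 2. Without R403Q-EMPA replicate 1 edgeR called 0, where 1006 genes had an unadjusted p under 0.05. Hspa1a gave 0 UMI in both WT-CD libraries and 38 in R403Q-EMPA, at least 16.5-fold higher, and at least 12.4-fold without R403Q-EMPA replicate 1. Rgl1, a regulator of Ral GTPases, lay at 998 and 888 CPM in WT-CD, at 695 and 441 in R403Q-CD and at 239 and 209 in R403Q-EMPA (log2 -2.07 ± 0.22, adjusted p = 0.0033, and -2.18 without R403Q-EMPA replicate 1). Timd4, a receptor of resident macrophages for dying cells, fell from 148 and 139 to 25.8 and 53.7, with 94.3 and 93.0 in R403Q-CD (log2 -1.98, and -1.42 without R403Q-EMPA replicate 1). Mamdc2 lay at 42.9 and 42.9 in WT-CD, at 3.87 and 5.17 in R403Q-CD and at 4.76 and 7.67 in R403Q-EMPA (log2 -2.88, and -2.47 without R403Q-EMPA replicate 1). For Mamdc2 both R403Q groups lay far below WT-CD and overlapped, whereas for Rgl1 and Timd4 all 3 groups were separate.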

How the data were processed

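Nuclei of fresh frozen left ventricle were profiled in 6 libraries. The authors deposited, per library, a matrix of raw UMI counts for 33696 genes, without normalisation; per the labels' processing notes, Cell Ranger 8.0.1 and GRCm39 were used. Filtered barcodes were taken as the report states. Barcodes were summed per library, and CPM are TMM-scaled unless given as unscaled or before scaling. For classes, doublets predicted by scrublet (3.68% to 6.45%) were removed, and nuclei were clustered with scanpy 1.11.5 (30 principal components, 2000 variable genes, 15 neighbours, Leiden resolution 1). A class needed at least 3 markers enriched 2-fold and seen in 10% of nuclei. Sums were tested with edgeR 4.0.16 in R 4.3.3 (filterByExpr, TMM, quasi-likelihood, all 6 libraries, Benjamini-Hochberg over all genes tested, called at an adjusted p under 0.05) after a test on simulated data. Replicates of a group differed by more than sampling noise (chi-square per degree of freedom 8.80 to 58.6), so none were merged.

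Named genes were the 12 highest and 12 lowest called genes over all nuclei with at least 5 CPM in the higher group and 5 each way per class with at least 10 CPM, in both libraries on the same side, beside listed genes. The comparison, lists and markers were chosen with earlier results of these data known. A few further genes given with values, such as Postn, Cilp, Myh7 and Acta1, were chosen after their values were seen. A few genes are not reported here. For genes at 0 UMI in a group, folds are lower bounds against 3 counts over the group, and 95% intervals are exact and cover counting error only. Genes with shared sequence could not be separated, and whether intronic reads were counted is not given in the sources used here. Differences between class shares were tested by exact permutation. Alternatives were DESeq2 1.42.0, RLE scaling, no filter on low counts, only the 4 libraries compared, each library left out, other barcode limits, doublets removed, another cluster resolution and class shares held.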

Additional observations from a re-analysis of the deposited data

Results flagged for a closer look

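For 10 named or listed genes the log2 fold change of R403Q-EMPA over WT-CD differed between cardiomyocyte-like and fibroblast-like nuclei, by an interaction term in edgeR chosen after the data were seen (272 of 13017 genes had an adjusted p under 0.05, with 104 larger in cardiomyocyte-like and 168 in fibroblast-like nuclei). Both classes came from the same 6 libraries, and the fit held a term for each library. The difference, cardiomyocyte-like minus fibroblast-like, was 2.95 for Grm8 (-0.33 against -3.29), 1.46 for Nr1d1 (-0.65 against -2.13) and -6.61 for Thbs4 (-0.21 against 6.47). Among the lowest genes of cardiomyocyte-like nuclei it was -1.85 for Mylk4 (-2.68 against -0.91) and -2.21 for Sorcs2 (-2.41 against -0.25). The remaining values were 1.75 for P3h2, 0.72 for P4ha1 (2.00 against 1.26), -1.45 for Hspa4l (0.90 against 2.33), 3.13 for Tpm2 and 1.93 for Pfkfb3. P4ha1 and Hspa4l were called higher in both classes.

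Of barcodes past the UMI and gene limits, a mean of 36.7% in R403Q-EMPA and 20.4% in WT-CD had over 5% mitochondrial UMI. The comparisons of the report leave out barcodes over that limit, and the refits over all nuclei that keep them are given with the other alternatives. Their part in the shares of nuclei was not tested.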

How the results depend on the processing

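The number of genes called moved with the processing. Over all nuclei (863 called) DESeq2 gave 1714, no filter on low counts 1491, the 4 compared libraries alone 295, a mitochondrial limit of 1% 392, no such limit 1429 and all deposited barcodes 1436. The 1% limit changed the mix of cells, with 63.2% to 99.4% of nuclei after doublet removal cardiomyocyte-like in the 6 libraries. Without a filter, cardiomyocyte-like, fibroblast-like and endothelial-like nuclei gave 1447, 1097 and 776 called genes, and with the 4 libraries alone 279, 51 and 19. DESeq2 gave 408 in fibroblast-like and 210 in endothelial-like nuclei and 74 in myeloid-like nuclei. The 4 libraries alone gave 122 in endocardial-like, 102 in pericyte-like and 13 in myeloid-like nuclei. With each library left out the count ran from 284 to 682 over all nuclei, 123 to 887 in cardiomyocyte-like, 24 to 585 in fibroblast-like, 14 to 585 in endothelial-like, 45 to 445 in endocardial-like, 73 to 416 in pericyte-like and 0 to 82 in myeloid-like nuclei. Fewer samples leave fewer residual degrees of freedom, and otherwise the cause was not tested. The 0 came without R403Q-EMPA replicate 1, where 1006 genes had an unadjusted p under 0.05.

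The difference in the endothelial-like share of nuclei, 4.20 points, was -0.592 with a mitochondrial limit of 1% and ran from -3.94 to 12.3 with a library left out, so no direction holds. The endocardial-like difference of 2.23 points was -0.241 with that limit. With a library left out, the differences in the shares of cardiomyocyte-like nuclei (8.93 to 14.4) and fibroblast-like nuclei (-15.4 to -7.21) kept their direction. With the 1% limit they were 15.0 and -8.71 points. The fibroblast-like value then rested on 29 and 107 nuclei in WT-CD and 29 and 2 in R403Q-EMPA, too few to read a direction. Genes that were not called changed sign with a library left out, namely Hsf1 over all nuclei (-0.026 to 0.11) and Myh6 (-0.37 to 0.13) and Ttn (-0.15 to 0.39) in cardiomyocyte-like nuclei. Kcnip2 (0.70) was -0.018 with class shares held. Of 348 called values of named and listed genes, 0 changed sign under any refit. Calls were kept by 346 with RLE scaling, 217 of 347 with the 4 libraries alone, 157 of 347 without R403Q-EMPA replicate 1 and 97 of 144 with a mitochondrial limit of 1%. That limit could not be fitted for fibroblast-like and endothelial-like nuclei, whose sums were too small. List medians were the same with genes at 0 UMI set to their bound.

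No paired analysis was possible because the labels give the libraries no replicate numbers that tie them across groups. No DESeq2 count was made without R403Q-EMPA replicate 1.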

Other observations

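Smaller classes gave few calls. In lymphatic endothelial-like nuclei 4 of 8910 genes passed edgeR's adjusted p of 0.05. Hsph1 rose from 13.3 and 17.6 CPM in WT-CD to 138 and 142 in R403Q-EMPA (log2 3.19), Stc1, a secreted glycoprotein hormone, from 15.7 and 14.1 to 73.8 and 61.7 (log2 2.19), P4ha1 from 136 and 146 to 439 and 392 (log2 1.57), and the sodium channel Scn3a from 215 and 158 to 602 and 423 (log2 1.46). In each of the 4 genes both treated libraries lay above both wild-type libraries.

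In epicardial-like nuclei 12 of 4668 genes were called. Of these the matrix protein Fn1 and the protein-folding genes Dnajc3 and Pdia3 were higher, and the clock genes Nr1d2 and Per3 were lower. Fn1 gave only 1 and 0 UMI in WT-CD against 9 and 18 in R403Q-EMPA. This class was not refitted without a library. In smooth muscle-like nuclei 2 of 3545 genes were called, Pde10a, which lay at 94.6 and 55.9 CPM in WT-CD and 1473 and 353 in R403Q-EMPA, and Csmd1, at 559 and 136 against 5.71 and 0. In UMI these were 11 and 7 against 258 and 24 for Pde10a and 65 and 17 against 1 and 0 for Csmd1. The class held 50 and 39 nuclei in WT-CD and 50 and 31 in R403Q-EMPA. Pde10a was higher by far in R403Q-EMPA replicate 1 than in replicate 2, and neither gene was refitted without a library. In lymphoid-like nuclei 1 of 5049 genes was called, Sorbs2, which was higher. Of 155 genes called in at least 2 classes, 12 were called in opposite directions in different classes.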
